A study of Mus musculus with 8 samples.

Results

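The genotype effect of Setd1a+/- was examined in the 7 cell types that the authors' annotation names in both the prefrontal cortex (PFC) and the striatum: astrocytes, endothelial cells, microglia, oligodendrocyte progenitor cells (OPCs), newly formed oligodendrocytes, oligodendrocytes, and interneurons. The 7 types held 14120 of the 23687 annotated cells. For each type, unique molecular identifiers (UMIs, counted RNA molecules) were summed over the cells of each library, and the 4 Setd1a+/- libraries were compared with the 4 WT libraries with the tissue in the model. The comparison addresses whether loss of a Setd1a allele moved the same genes in a cell type of both tissues, and whether any gene moved in many types.

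The study made 8 single-cell libraries on the 10x Chromium platform, 2 from WT and 2 from Setd1a+/- mice in each tissue. Each library pooled the dissected tissue of 2 male mice, so no value belongs to a single animal. The mutant allele is a frameshift deletion that CRISPR-Cas9 introduced into exon 15 of Setd1a, ahead of the SET domain, in all cells of the animal. The founders came from zygotes of a B6D2F1 cross and were backcrossed to C57BL/6N, the strain in the labels, and the WT mice were littermates. The mice received no treatment. The labels give an age of 8 to 10 weeks, the study's methods give an older one, and age entered no test. The labels of the striatal samples name nucleus accumbens and the methods name dorsal and ventral striatum. According to the methods a biological replicate consisted of 1 WT and 1 Setd1a+/- sample, and such pairs are matched here by tissue and replicate number, 4 in all.

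Setd1a is the catalytic subunit of a COMPASS complex, which methylates lysine 4 of histone H3, a mark found at the promoters of active genes. Astrocytes supply neurons with nutrients and lipids, endothelial cells form the vessel wall of the blood-brain barrier, microglia are the resident immune cells, and the oligodendrocyte lineage runs from progenitors through newly formed to myelinating cells. Interneurons are the local inhibitory neurons.

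The 7 cell types numbered between 460 newly formed oligodendrocytes and 4039 oligodendrocytes. The fewest cells behind a sum were 22, for newly formed oligodendrocytes of striatum Setd1a+/- replicate 2, and the sums held 43581 to 2336295 UMIs. The marker list of each type was higher in its own type than in any other in all 8 libraries. Interneuron markers summed to between 24631 and 31504 CPM (a gene's UMIs scaled to a sum of 1000000) in the PFC interneurons and between 4607 and 11742 CPM in the striatal ones, so the name covers cells that differ between the tissues. The endothelial sums also held mural cell markers, at 4971 to 6045 CPM against 13723 to 21273 CPM for endothelial markers. All 8 mural markers had a positive log2 FC there (median 0.10). Of 8 endothelial markers, 5 had a negative and 3 a positive one (median -0.08). In both lists 0 reached an unadjusted p under 0.05, and the part of mural cells in the endothelial results was not tested. Any 2 libraries shared at most 11 cell barcodes. PFC WT replicate 1 stood apart for several RNAs described below, and striatum Setd1a+/- replicate 2 held the fewest cells of the 7 types, 744 against 1024 to 2663. The p-values measure the spread between these pooled libraries. Summed UMIs do not tell a lower level per cell from fewer cells that carry the RNA.

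Setd1a (ENSMUSG00000042308, chr7:127776670-127800122, plus strand, GRCm38) was counted rarely. Over the 7 types together it gave 41 and 29 UMIs in PFC WT, 16 and 19 in PFC Setd1a+/-, 75 and 78 in striatum WT, and 53 and 26 in striatum Setd1a+/- libraries. Relative to depth these were 6.77 and 8.31 CPM, 4.51 and 7.67 CPM, 11.3 and 14.4 CPM, and 7.53 and 12.2 CPM in the same order. The Setd1a+/- library was the lower in 4 of 4 pairs on this scale and in 3 of 4 after TMM normalization, and the genotypes overlapped within each tissue. Setd1a had a log2 FC of -0.37 (standard error 0.26, n = 4 libraries per genotype), with an edgeR FDR of 1.00. With 1 library left out it ran from -0.55 (without PFC Setd1a+/- replicate 2) to -0.23 (without striatum Setd1a+/- replicate 1). It was -0.29 in the PFC and -0.42 in the striatum. Only endothelial cells (log2 FC -0.54, standard error 0.36) and interneurons (-0.32, standard error 0.48) had enough Setd1a UMIs to be tested on their own, and neither passed. The 3' tags counted here do not separate the edited from the intact allele.

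A call required both an FC larger than 1.5 and an FDR below 0.05 in edgeR's quasi-likelihood test, and no gene met both in any of the 7 types (0% of 49915 gene and type combinations). At an unadjusted p under 0.05 there were 1434 combinations (2.87%), 690 lower and 744 higher in Setd1a+/-, and DESeq2 called 1, Apoe in oligodendrocytes (0.0128% of that type). The share of tested genes at this unadjusted p was 4.56% in astrocytes, 3.19% in newly formed oligodendrocytes, 3.15% in OPCs, 2.63% in interneurons, 2.57% in endothelial cells, 2.28% in oligodendrocytes, and 1.73% in microglia. In astrocytes 214 of the 299 genes were higher, in newly formed oligodendrocytes 84 of 120 were lower, and the other 5 types were split more evenly. For scale, the same fits called 829, 779, 851, and 1005 genes between the tissues in astrocytes, endothelial cells, microglia, and interneurons (12.6%, 7.31%, 20.7%, and 12% of genes tested), and 244 in oligodendrocytes (3.12%). Between tissues OPCs gave 29 (0.336%) and newly formed oligodendrocytes 3 (0.0797%).

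With the 4 pairs as a block in place of the tissue, 18 combinations were called (0.0361%), 10 higher and 8 lower in Setd1a+/-. Newly formed oligodendrocytes (0.133%) and astrocytes (0.0762%) had 5 each, interneurons (0.0358%) and endothelial cells (0.0282%) 3 each, and oligodendrocytes 2 (0.0256%). In microglia and OPCs edgeR called 0, with 88 (2.14%) and 437 (5.06%) at an unadjusted p under 0.05, and DESeq2 without the block also called 0. Of the 18, 8 were adult globin genes, which encode the chains of hemoglobin in red blood cells. The others were Anxa11 in astrocytes, Ciart, Igkc, and Hist1h1e in endothelial cells, Arpp21 in newly formed oligodendrocytes, Apoe and 9630013A20Rik in oligodendrocytes, and Fos, Synpr, and Mt2 in interneurons. They are named here because the block called them, a choice made after their values were seen. With every library left out in turn, 5 of the 18 calls held each time, and all 5 were globin genes.

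The globin calls rested on a few cells. In newly formed oligodendrocytes Hba-a1 was at 994 and 0 CPM in PFC WT, 0 and 8.96 CPM in PFC Setd1a+/-, 904 and 0 CPM in striatum WT, and 5.46 and 0 CPM in striatum Setd1a+/- libraries. The high libraries were thus WT replicate 1 of each tissue, and the other WT libraries lay at 0. One cell of PFC WT replicate 1 held 2420 of the 2457 globin UMIs of its sum, and 1 cell of striatum WT replicate 1 held 1089 of 1096. The log2 FC of the 4 globin genes ran from -6.06 to -7.46 with the block. In astrocytes the direction was opposite, with log2 FCs of 3.61 to 5.89. There, 1 cell of PFC Setd1a+/- replicate 1 held 333 of 338 globin UMIs and 1 cell of striatum Setd1a+/- replicate 2 held 741 of 747. Cells with at least 20 globin UMIs numbered 2 of 1411 astrocytes, 2 of 460 newly formed oligodendrocytes, and 257 of 3560 endothelial cells. Without such cells 8 of the 18 calls held (0.0161% of 49780), among them no globin gene, and no other call appeared.

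Several of the remaining calls were also carried by few cells. Igkc, the constant region of the antibody kappa chain and a product of B-lineage cells, had a log2 FC of -3.07 in endothelial cells. It was at 243 CPM in striatum WT replicate 2 and at 1.1 to 25.2 CPM in the other 7 libraries, and 339 of the 370 UMIs of that library came from 1 cell. The antisense RNA 9630013A20Rik had a log2 FC of 2.42 in oligodendrocytes, with 75 of 125 UMIs of PFC Setd1a+/- replicate 1 in 1 cell. Mt2, a metallothionein that binds zinc, was at 186 CPM in the interneurons of striatum Setd1a+/- replicate 1, where 1 cell held 105 of 151 UMIs, and at 5.72 to 46.3 CPM elsewhere. Anxa11, which encodes a calcium-dependent membrane-binding annexin, was at 0 and 3.67 CPM in PFC WT, 0 and 13.6 CPM in PFC Setd1a+/-, 27.5 and 20.4 CPM in striatum WT, and 101 and 149 CPM in striatum Setd1a+/- astrocytes. Its log2 FC was 2.17 (standard error 0.40, edgeR FDR 0.0149 with the block and 0.234 without it), and the PFC values rest on at most 5 UMIs per library. The call was lost without striatum WT replicate 1 or striatum Setd1a+/- replicate 1, and without cells of at least 20 globin UMIs (FDR 0.0753, log2 FC 2.17).

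Markers of ependymal and choroid plexus cells were highest in the same 2 astrocyte libraries as Anxa11. All 5 members tested were higher in Setd1a+/- astrocytes and 3 passed an unadjusted p under 0.05 (3.26% of astrocyte genes did so in that direction). Their summed level was 56.9 to 84.3 CPM in the 4 PFC libraries, 1107 and 723 CPM in striatum WT, and 1667 and 2580 CPM in striatum Setd1a+/- astrocytes, so the shift was a striatal one. Tmem212 had a log2 FC of 1.42 in the striatum and 0 UMIs in the PFC astrocytes. The part of these cells in the astrocyte results was not tested.

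Arpp21 encodes a regulated phosphoprotein and RNA-binding protein that is abundant in striatal and cortical neurons. In newly formed oligodendrocytes it was at 241 and 148 CPM in PFC WT, 109 and 117 CPM in PFC Setd1a+/-, 381 and 349 CPM in striatum WT, and 104 and 68.8 CPM in striatum Setd1a+/- libraries. All 4 Setd1a+/- libraries lay below all 4 WT libraries. Arpp21 gave a log2 FC of -1.33 with the block (standard error 0.26, edgeR FDR 0.0171) and -1.31 without it (FDR 0.140), and the call was lost without any 1 of the 4 striatal libraries. Markers of medium spiny neurons, the main neurons of the striatum, were lower in the same cells, with a summed level of 710 and 1175 CPM in striatum WT, 126 and 482 CPM in striatum Setd1a+/-, and 17.9 to 53.8 CPM in the PFC libraries. All 3 members tested had a negative log2 FC (median -1.43). Of these, 1 was lower at an unadjusted p under 0.05, as were 2.23% of all genes tested in these cells, and the part of these markers in the result was not tested. In barcodes with 1 to 50 UMIs, which are mostly empty droplets and hold free RNA, Arpp21 was at 316 to 400 CPM in PFC and 1278 to 1761 CPM in striatum libraries, above the level in these cells, and the part of free RNA in the difference was not tested.

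**Figure D1:**
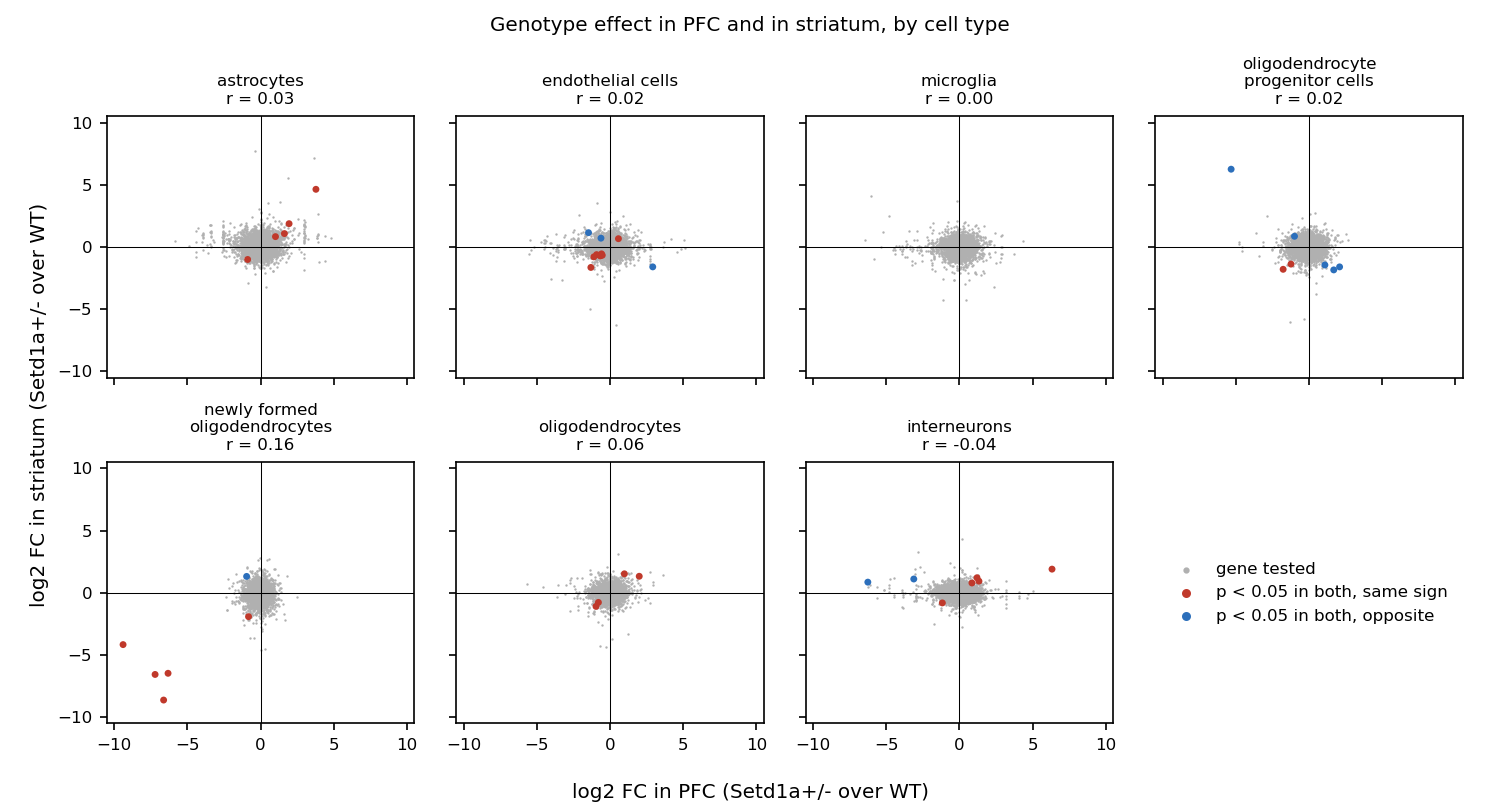
Each panel plots, for 1 cell type, the log2 FC of Setd1a+/- over WT in the PFC (horizontal) against that in the striatum (vertical) for every gene tested (grey), from 2 libraries per genotype in each tissue; red points have an unadjusted p under 0.05 in both tissues with the same sign and blue points with opposite signs, and r is the Pearson correlation. The grey clouds are centred on 0 with no visible slope, and the 4 globin genes of newly formed oligodendrocytes lie far to the lower left.

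Across genes the log2 FCs estimated in the PFC and in the striatum were nearly unrelated. Each estimate rests on 2 against 2 libraries, so a correlation near 0 cannot tell the lack of a shared effect from noise. The Pearson correlation of the log2 FCs was 0.03 in astrocytes (6561 genes), 0.02 in endothelial cells (10652), 0.00 in microglia (4108), 0.02 in OPCs (8637), 0.16 in newly formed oligodendrocytes (3763), 0.06 in oligodendrocytes (7820), and -0.04 in interneurons (8374). The jackknife standard errors over the 8 libraries were 0.02 to 0.10, as large as or larger than the correlation in 5 of the 7 types. In newly formed oligodendrocytes the value was 0.02 without the 2 cells of at least 20 globin UMIs, 0.58 over the 839 genes with at least 100 UMIs in each tissue, and -0.01 as a Spearman correlation, so the value rested on those 2 cells. In the other types the correlation over genes with at least 100 UMIs in each tissue ran from -0.09 in microglia to 0.09 in oligodendrocytes. Between 49.2% and 51.0% of genes had the same sign in both tissues. The tissues share no library, but the methods do not say whether they came from different mice. Genes of a library are not independent replicates.

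The plot of PFC against striatum effects can be read gene by gene. Over the 7 types 1352 combinations (2.71%) passed an unadjusted p under 0.05 in the PFC, and 726 of these (53.7%) had the same sign in the striatum. Of 994 (1.99%) in the striatum, 501 (50.4%) had the same sign in the PFC. Of all 49915 combinations, 40 reached an unadjusted p under 0.05 in both tissues, 29 with the same sign and 11 with opposite signs. The tests of both tissues shared the estimate of a gene's spread, so a low estimate gives a small p in both. How many would pass in both without a shared effect was not tested. Nothing is therefore read from these counts or from the likeness of the genes named next. Of the 29, 5 were globin genes, Hbb-bs in astrocytes and Hbb-bt, Hbb-bs, Hba-a1, and Hba-a2 in newly formed oligodendrocytes. The others included Apoe and the cyclin gene Ccnd2 in endothelial cells and oligodendrocytes, the immediate early genes Fos, Egr1, and Nr4a1 in interneurons, Nr4a1 and Jam2 in astrocytes, and Hps1 in OPCs. Tested within each tissue with the block, 22 combinations were called in the PFC (0.0441%) and 23 in the striatum (0.0461%). The 6 called in both were all globin genes, and without the cells of at least 20 globin UMIs 0 were called in both (19 and 17 in the tissues taken alone). Without the block edgeR called 0 in each tissue.

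Apoe, the lipid carrier that astrocytes secrete in largest amount, was the gene lower in most types among those expressed from the nuclear protein-coding genome. It lies at chr7:19696109-19699188 on the minus strand (GRCm38). In oligodendrocytes it was at 631 and 479 CPM in PFC WT, 237 and 308 CPM in PFC Setd1a+/-, 684 and 949 CPM in striatum WT, and 454 and 277 CPM in striatum Setd1a+/- libraries. Every Setd1a+/- library was below all WT libraries, in each tissue and over both. Apoe there gave a log2 FC of -1.02 without the block (standard error 0.20, edgeR FDR 1.00), -1.01 with it (standard error 0.17, FDR 0.0229), and DESeq2 called it at an FDR of 0.0257. It was -0.96 in the PFC and -1.10 in the striatum.

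Astrocytes had the highest level of Apoe, with 4904 and 6038 CPM in PFC WT, 4101 and 3899 CPM in PFC Setd1a+/-, 9756 and 13119 CPM in striatum WT, and 8070 and 3525 CPM in striatum Setd1a+/- libraries. In OPCs the levels were 1980 and 2751, 1812 and 1762, 4532 and 5489, and 3366 and 2220 CPM in the same order. The Setd1a+/- libraries lay below the WT libraries of their tissue in both types. Astrocyte markers in astrocytes also had a negative log2 FC in 7 of 8 tested, 0 at an unadjusted p under 0.05 (median -0.25, with -0.07 in the PFC and -0.39 in the striatum). Their summed level was 20715 and 19044, 20943 and 20246, 15346 and 16455, and 13929 and 8951 CPM in the same order, lowest in striatum Setd1a+/- replicate 2, which holds 31 astrocytes, and their part in the result was not tested. Log2 FCs were -0.75 in astrocytes (standard error 0.26), -0.61 in OPCs (0.17), -0.57 in endothelial cells (0.17), and -0.97 in newly formed oligodendrocytes (0.29), each at an unadjusted p under 0.05 and none past the FDR. In these 4 types and oligodendrocytes the Setd1a+/- library was the lower in 4 of 4 pairs, as it was for 8.05%, 6.56%, 8.18%, 7.02%, and 7.42% of all genes tested in astrocytes, OPCs, endothelial cells, newly formed oligodendrocytes, and oligodendrocytes. Apoe was picked by its p in these same types and libraries, so nothing is read from that count or from likeness between the tissues. Microglia gave -1.40 with a standard error of 0.79 and levels from 185 to 3570 CPM, and interneurons gave -0.20 (0.42) at 4.44 to 67.7 CPM.

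Apoe was also present in free RNA. In barcodes with 1 to 50 UMIs it was at 410 and 346 CPM in PFC WT, 285 and 257 CPM in PFC Setd1a+/-, 512 and 772 CPM in striatum WT, and 565 and 245 CPM in striatum Setd1a+/- libraries. It was thus the lower in the Setd1a+/- library in 3 of 4 pairs there too. The level in oligodendrocytes (237 to 949 CPM) and in endothelial cells (179 to 965 CPM) was near that of these barcodes, while astrocytes and OPCs were above it in every library. The part of free RNA in the Apoe differences was not tested. With each library left out in turn, the log2 FC in oligodendrocytes stayed between -1.21 and -0.88, and with the block it was called in 6 of 8 such fits and lost without PFC WT replicate 1 or striatum WT replicate 2.

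**Figure D2:**
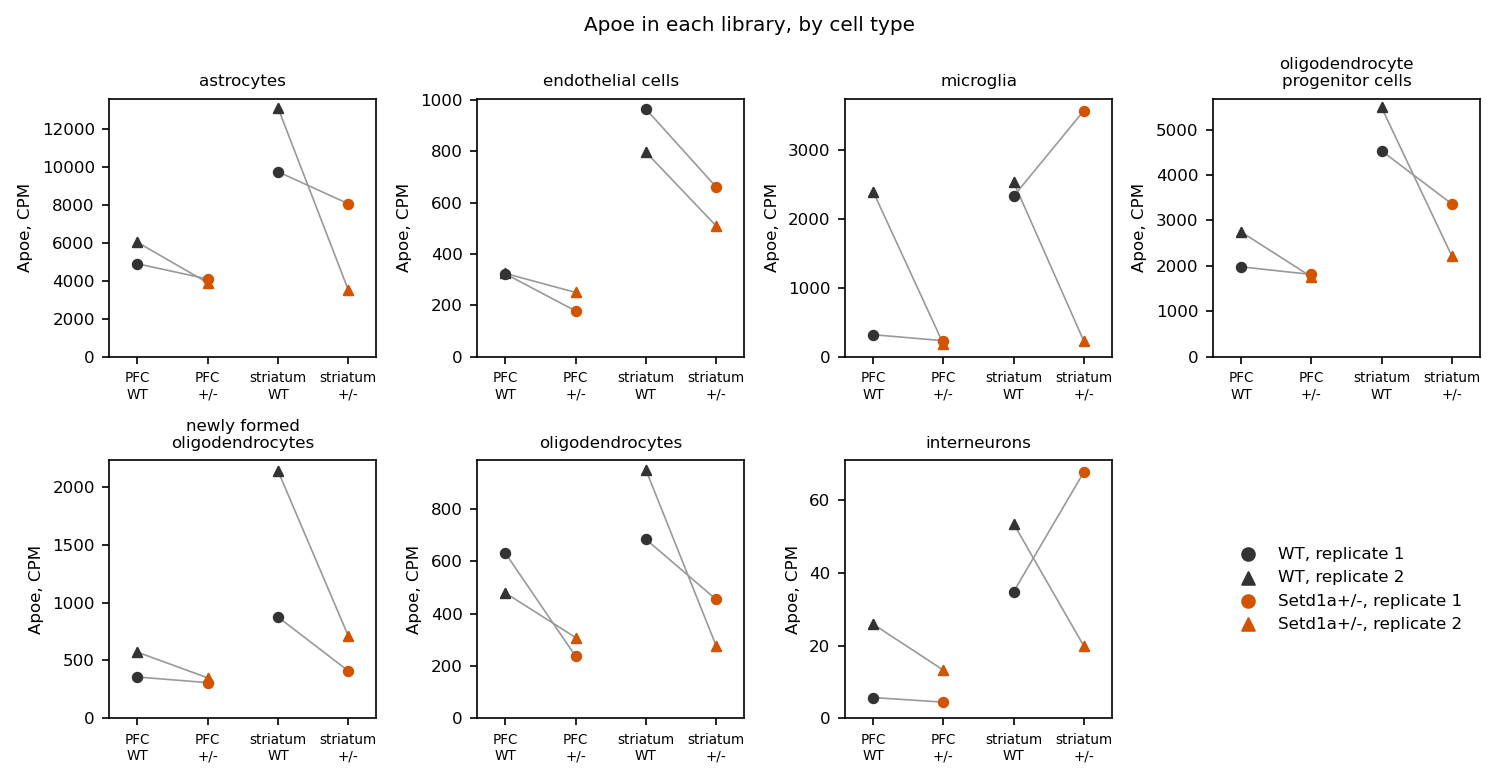
Apoe level in CPM (vertical, from 0, with its own scale in each panel) in the 8 libraries for each of the 7 cell types; black points are WT, orange points Setd1a+/-, circles replicate 1 and triangles replicate 2, and lines join the libraries of a pair. All 4 lines fall in astrocytes, endothelial cells, OPCs, newly formed oligodendrocytes, and oligodendrocytes, and 1 striatal line rises in microglia and in interneurons.

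Genes that reached an unadjusted p under 0.05 in the same direction in at least 3 types were counted next. There were 13 lower ones and 7 higher ones in Setd1a+/-, none past the FDR in the model with tissue, and with the block there were 33 and 21. These are few beside the genes tested in that many types, 1289 in 3, 1566 in 4, 1608 in 5, 1247 in 6, and 2668 in all 7. The lower ones were led by Gm42418 (7 types), Apoe (5), and mt-Atp8 (4), and the higher ones by Per3 (4), Ccnd2 (3), and Nr1d2 (3). With the block Gm42418 (7 types), Apoe (6), Scnm1 (5), and Ifi27 (5) led the lower ones and Ccnd2, Erh, and Srsf2 (5 each) the higher ones. The types of a library share its dissociation and its free RNA, so they do not replicate each other.

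Gm42418 is a long noncoding RNA gene at chr17:39846958-39848788 that overlaps a ribosomal RNA repeat. Its log2 FC ran from -1.66 in endothelial cells to -1.15 in interneurons. In endothelial cells it was at 1608 and 425 CPM in PFC WT, 69.1 and 309 CPM in PFC Setd1a+/-, 274 and 267 CPM in striatum WT, and 183 and 100 CPM in striatum Setd1a+/- libraries. PFC WT replicate 1 was the highest library in all 7 types and PFC Setd1a+/- replicate 1 the lowest in the PFC. The PFC log2 FC was between -2.46 and -1.95 and the striatal one between -1.03 and -0.34. The mitochondrially encoded mt-Atp8, a subunit of the ATP synthase, had the same highest library, with 179 CPM in the endothelial cells of PFC WT replicate 1 against 14.6 to 71.6 CPM elsewhere. Its log2 FC there was -2.39 in the PFC and -0.19 in the striatum. The other sign was more frequent among the 13 mitochondrially encoded genes, of which 8 had a positive log2 FC in endothelial cells (median 0.09) and 9 in oligodendrocytes (median 0.15), and mt-Atp6, another subunit of that enzyme, was higher at an unadjusted p under 0.05 in 3 types (log2 FC 0.37 in endothelial cells and 0.30 in oligodendrocytes). The linker histone gene Hist1h1e, called lower in endothelial cells with the block, was at 164 CPM in that library and at 3.64 to 45.1 CPM in the others, and its log2 FC of -1.73 without the block became -0.95 without PFC WT replicate 1.

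Ccnd2, a cyclin that carries cells from G1 into S phase, had higher values in several types. In endothelial cells it was at 79.6 and 118 CPM in PFC WT, 143 and 142 CPM in PFC Setd1a+/-, 108 and 98.7 CPM in striatum WT, and 154 and 168 CPM in striatum Setd1a+/- libraries. All Setd1a+/- libraries lay above all WT libraries. Its log2 FC was 0.62 there (standard error 0.16, 0.57 in the PFC and 0.66 in the striatum), 0.45 in astrocytes, and 1.51 in oligodendrocytes, where the level was only 1.74 to 37.2 CPM. Jam2, an adhesion molecule of cell junctions, had a log2 FC of -0.95 in astrocytes, -0.87 in newly formed oligodendrocytes, and -0.46 in OPCs. In astrocytes it was lower in 4 of 4 pairs, as were 8.05% of all genes tested there, at 123 and 84.3, 68.4 and 51.5, 63.5 and 73.4, and 34.9 and 31.9 CPM from PFC WT to striatum Setd1a+/-. Oligodendrocyte markers in the same astrocyte sums were at 490 and 488, 291 and 163, 453 and 283, and 300 and 127 CPM in that order. All 3 tested were lower at an unadjusted p under 0.05 (median log2 FC -0.93), as were 3 of 4 myelin genes and 1.3% of all astrocyte genes. The part of these markers in the result was not tested. In newly formed oligodendrocytes the Jam2 value rested on the same library as that of Gm42418, with 357 CPM in PFC WT replicate 1, and was -0.28 without it. Dnajb1, a heat shock co-chaperone, had log2 FCs of 0.75 in OPCs, 0.90 in newly formed oligodendrocytes, and 0.54 in oligodendrocytes. Ccnd2, Jam2, and Dnajb1 were picked by their p over both tissues in these same types. Nothing is therefore read from the separation of the genotypes, the count of pairs, or likeness between the tissues.

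**Figure D3:**
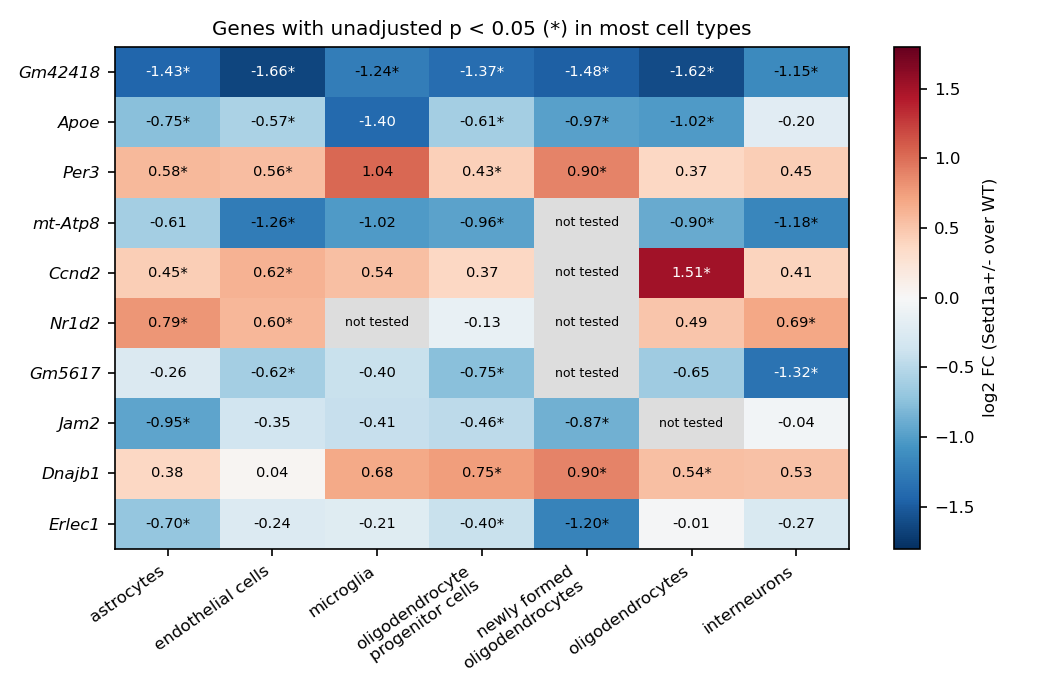
Log2 FC of Setd1a+/- over WT (number and colour, blue lower and red higher) for the 10 genes with an unadjusted p under 0.05 in the same direction in the largest number of types (rows) in the 7 cell types (columns); a star marks an unadjusted p under 0.05 and grey cells were not tested. Gm42418 has a star in all 7 types, Apoe in 5, and Per3 and mt-Atp8 in 4.

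None of the 3 genes of smallest p in each type passed the FDR without the block. They were picked on both tissues together, which favours genes that are alike in both, so their agreement is no result. Hps1, which serves the formation of lysosome-related organelles, was at 19.5 and 23.5 CPM in PFC WT, 9.87 and 8.03 CPM in PFC Setd1a+/-, 26.6 and 30.7 CPM in striatum WT, and 10.3 and 12.3 CPM in striatum Setd1a+/- OPCs. The genotypes did not overlap, and the log2 FC was -1.31 (standard error 0.34, -1.23 in the PFC and -1.38 in the striatum). Cyth4, a guanine nucleotide exchange factor of blood-lineage cells, had a log2 FC of -1.24 in endothelial cells with at most 15.7 CPM. In microglia Exosc4, a subunit of the RNA exosome, gave 1.07, Gmfg gave -1.0, and Srp19, part of the signal recognition particle, gave -1.22. Kcne4, a potassium channel subunit, gave 1.12 in endothelial cells, with 1.85 in the PFC and 0.45 in the striatum.

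Immediate early genes, which neurons transcribe within minutes of activity, were tested as a list in interneurons. According to the methods the tissue was digested with papain before cell capture. The part of this dissociation in the levels of these genes was not tested in any type. Of 18 members tested, 13 had a positive and 5 a negative log2 FC, none passed the FDR without the block, 8 were higher and 1 lower at an unadjusted p under 0.05, where 1.33% and 1.3% of all interneuron genes were higher and lower, and the median log2 FC was 0.54 against 0.00 over all genes. It was 0.24 in the PFC and 0.60 in the striatum. The summed level of the list was 434 and 735 CPM in PFC WT, 1034 and 741 CPM in PFC Setd1a+/-, 830 and 633 CPM in striatum WT, and 1324 and 981 CPM in striatum Setd1a+/- libraries, nearly equal in replicate 2 of the PFC. Fos, a subunit of the AP-1 transcription factor (chr12:85473890-85477273, plus strand), was at 71.4 and 159 CPM in PFC WT, 315 and 218 CPM in PFC Setd1a+/-, 107 and 85.5 CPM in striatum WT, and 287 and 150 CPM in striatum Setd1a+/- libraries. Within each tissue the genotypes did not overlap. The log2 FC was 1.20 (standard error 0.25, 1.20 in the PFC and 1.21 in the striatum). Its edgeR FDR was 1.00 without the block and 0.0267 with it, and the call was lost without striatum Setd1a+/- replicate 1.

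Egr1 and Nr4a1, other transcription factors of the list, had positive log2 FCs as well. Like Fos and Synpr they were picked by a p over both tissues, which favours like values in the PFC and the striatum, so that likeness is no result. Egr1 was at 57.2 and 102 CPM in PFC WT, 144 and 146 CPM in PFC Setd1a+/-, 101 and 70.7 CPM in striatum WT, and 176 and 116 CPM in striatum Setd1a+/- interneurons, with a log2 FC of 0.81 (standard error 0.21). Nr4a1 had a log2 FC of 1.09 (standard error 0.31), with 1.33 in the PFC and 0.93 in the striatum. Neither passed the FDR. In low-UMI barcodes Fos was at 178 to 554 CPM, above its level in the interneurons of 7 of the 8 libraries, and without an order by genotype. The part of free RNA in the difference was not tested.

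In astrocytes 6 of 11 members were higher at an unadjusted p under 0.05 (3.26% of all astrocyte genes were) and 0 lower, with a median log2 FC of 0.80. The summed level of the list was 1436 CPM in PFC Setd1a+/- replicate 1 and 339 to 913 CPM in the other astrocyte sums, while endothelial cells carried these genes at 11069 to 18614 CPM. Endothelial markers were also highest in that astrocyte library, at 684 CPM against 63.7 to 162 CPM, all 3 tested had a positive log2 FC (median 0.47), and their part in the result was not tested. Nr4a1 was at 4.83 and 11 CPM in PFC WT, 34.2 and 27.1 CPM in PFC Setd1a+/-, 13.7 and 12.2 CPM in striatum WT, and 38.3 and 84.9 CPM in striatum Setd1a+/- astrocytes, so all Setd1a+/- libraries lay above all WT libraries. Its log2 FC was 1.88 (standard error 0.44, FDR 0.689). Nr4a1 was picked by its p in these same libraries, so nothing is read from that separation. Fos in astrocytes rested on PFC Setd1a+/- replicate 1 (444 CPM against 34.6 to 96.9 CPM elsewhere), and its log2 FC of 1.25 was 0.49 without that library. Without the block no member passed in endothelial cells (24 tested, median -0.08), microglia (16, 0.21), OPCs (12, -0.12), newly formed oligodendrocytes (2), or oligodendrocytes (12, -0.24). With the block 6 of the 24 were lower and 1 higher in endothelial cells at an unadjusted p under 0.05 (3.3% and 2.61% of all endothelial genes were). In interneurons 1 of 18 was lower and 9 higher with the block at that p (1.73% and 1.8% of all interneuron genes). The difference between types was not tested.

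Synpr, which encodes the synaptic vesicle protein synaptoporin (chr14:13284780-13616340, plus strand), was the other call in interneurons that did not rest on 1 cell. It was at 697 and 705 CPM in PFC WT, 1400 and 1595 CPM in PFC Setd1a+/-, 186 and 264 CPM in striatum WT, and 236 and 395 CPM in striatum Setd1a+/- libraries. The genotypes were apart in the PFC and overlapped in the striatum, where the pairs still ran in the same direction. The log2 FC was 0.82 with the block (standard error 0.14, edgeR FDR 0.0267) and 0.83 without it (FDR 1.00), with 1.12 in the PFC and 0.53 in the striatum. The call was lost without PFC WT or Setd1a+/- replicate 2. Markers of interneurons and their subtypes were at 31504 and 26078, 24631 and 25100, 4607 and 11742, and 10974 and 9667 CPM in the same order, lowest in striatum WT replicate 1, as Synpr was. Of the 13 tested, 9 had a positive and 4 a negative log2 FC (median 0.13), with 0.53 for Reln (unadjusted p = 0.0471, edgeR FDR 1.00), 1.34 for Vip (1.25 in the PFC and 1.46 in the striatum), and -0.64 for Pvalb, and their part in the results for interneurons was not tested. Gal, the neuropeptide galanin, had a log2 FC of 1.86 that came from the striatum (9.09 and 13.2 CPM in WT, 29.6 and 60.3 CPM in Setd1a+/-), with 0 to 5.98 CPM in the PFC. Few cells carried it: in striatum Setd1a+/- replicate 1 it was found in 6 of 138 interneurons, and 3 of these held 21 of the 24 Gal UMIs (87.5%). In striatum Setd1a+/- replicate 2, the highest library, it was found in 17 of 248, and 3 cells held 26 of the 64 UMIs (40.6%).

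**Figure D4:**
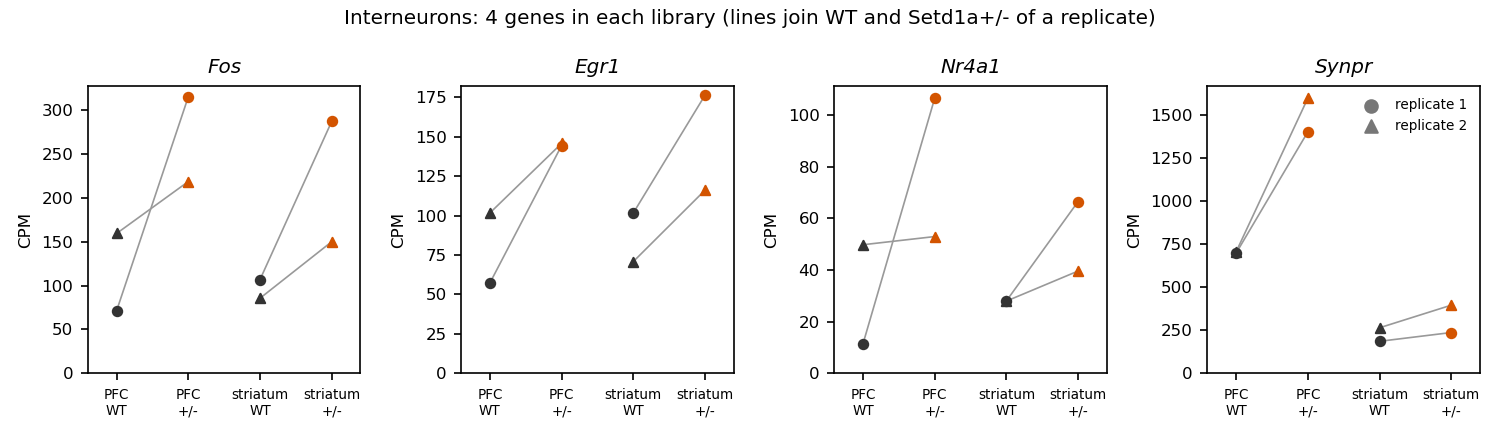
Levels of Fos, Egr1, Nr4a1, and Synpr in interneurons in CPM (vertical, from 0) in the 8 libraries; black points are WT, orange points Setd1a+/-, circles replicate 1 and triangles replicate 2, and lines join the libraries of a pair. All 4 lines rise in each panel, and the Setd1a+/- libraries of the PFC lie at 1400 and 1595 CPM for Synpr against 697 and 705 CPM in WT.

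Genes of the circadian clock were looked at as a group after Per3 and Nr1d2 had been seen among the genes shared by several types, so their counts are a description. The clock is a transcription loop in which CLOCK and BMAL1 bind E-boxes and switch on their own repressors (the Per and Cry genes, Ciart), while PAR bZIP factors such as Tef and Hlf act through D-boxes, and Nr1d2 represses Arntl, the gene of BMAL1. In endothelial cells 15 members were tested, 8 were higher and 0 lower at an unadjusted p under 0.05 (1.17% of all endothelial genes were higher), and the median log2 FC was 0.47 against -0.02 over all genes. At that p 2 of 12 were higher in astrocytes and in interneurons (3.26% and 1.33% of all their genes), and 1 of 12 in OPCs (1.56%). It was 1 of 11 in oligodendrocytes (1.1%), 1 of 1 in newly formed oligodendrocytes (0.957%), and 0 of 4 in microglia (0.901%). In these types 0 were lower. The mitochondrial share of UMIs in endothelial cells was also higher in all Setd1a+/- libraries than in all WT libraries, at 4.46% and 5.33% in PFC WT, 5.46% and 5.81% in PFC Setd1a+/-, 5.27% and 5.29% in striatum WT, and 5.47% and 6.81% in striatum Setd1a+/-. Its part in the clock gene result, and in those of Ccnd2, the interferon response genes, and the other genes of the same cells, was not tested. The methods do not give the hour of dissection, and the part of that hour in the clock gene levels was not tested. Windows from RefSeq promoters (GRCm38.p6) are shown for members with an unadjusted p under 0.05 in endothelial cells, and only where the letters searched were found. Not all of the 8 members therefore have a window. The E-box letters CACGTG are in capitals.
Ciart, chr3:95882255-95882356, minus strand: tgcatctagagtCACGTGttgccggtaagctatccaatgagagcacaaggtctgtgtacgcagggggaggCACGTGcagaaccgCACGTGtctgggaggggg
Bhlhe41, chr6:145865556-145865585, minus strand: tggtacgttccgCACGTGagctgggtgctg
Cry1, chr10:85185097-85185126, minus strand: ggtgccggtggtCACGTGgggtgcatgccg
Tef, first start, chr15:81802534-81802563, plus strand: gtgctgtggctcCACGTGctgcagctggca
Tef, second start, chr15:81811264-81811293, plus strand: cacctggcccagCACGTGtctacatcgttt
Per3 held the D-box letters TTATGNAA, in capitals in its window.
Per3, chr4:151044804-151044882, minus strand: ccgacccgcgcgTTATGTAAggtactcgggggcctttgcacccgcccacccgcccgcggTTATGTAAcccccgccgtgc

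The letters were searched on both strands in the 250 bases ahead of the annotated start, where these windows lie. CACGTG was present in 6.02% of all 32851 promoters and in 6 of the 19 promoters of the 14 clock genes matched (5 of these genes). TTATGNAA was present in 3.07% of all promoters and in 2 of the 19 (2 of the 14 genes). Per1 held both and is not shown. A match of letters is not evidence of binding.

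Ciart, the repressor whose window holds 3 E-boxes, was the clock gene called with the block. In endothelial cells it was at 69.6 and 31.8 CPM in PFC WT, 130 and 89.2 CPM in PFC Setd1a+/-, 20.5 and 55.3 CPM in striatum WT, and 49 and 76.5 CPM in striatum Setd1a+/- libraries. Within the striatum the genotypes overlapped, while each Setd1a+/- library was above the WT library of its pair. The log2 FC was 0.99 (standard error 0.18, edgeR FDR 0.0307) with the block and 0.90 (standard error 0.30, FDR 1.00) without it. The call was lost without PFC WT replicate 2, PFC Setd1a+/- replicate 2, striatum WT replicate 1, or striatum Setd1a+/- replicate 1, and without cells of at least 20 globin UMIs (FDR 0.0699 with the block). In astrocytes the Ciart log2 FC was -0.95, at a p of 0.0781 in edgeR.

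Per3, a period gene (chr4:151003652-151044665, minus strand), was higher in 4 of 4 pairs in astrocytes, endothelial cells, OPCs, and newly formed oligodendrocytes, as were 6.33%, 5.99%, 6.65%, and 5.16% of all genes tested in them. In astrocytes it was at 154 and 121 CPM in PFC WT, 197 and 225 CPM in PFC Setd1a+/-, 118 and 132 CPM in striatum WT, and 173 and 223 CPM in striatum Setd1a+/- libraries. All Setd1a+/- libraries were above all WT libraries there. The log2 FC was 0.58 in astrocytes (standard error 0.21), 0.56 in endothelial cells (0.20), 0.43 in OPCs (0.18), and 0.90 in newly formed oligodendrocytes (0.42). Nr1d2, the nuclear receptor REV-ERB beta, gave 0.60 in endothelial cells, 0.79 in astrocytes, and 0.69 in interneurons, again higher in 4 of 4 pairs in each (5.66% of all interneuron genes were). Both genes were picked by their p over both tissues in these same types, so nothing is read from the counts of pairs or from likeness between the tissues. Bhlhe41 in endothelial cells rested on striatum Setd1a+/- replicate 2 (102 CPM against 2.65 to 23.7 CPM), and its log2 FC of 1.29 was 0.38 without that library.

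**Figure D5:**
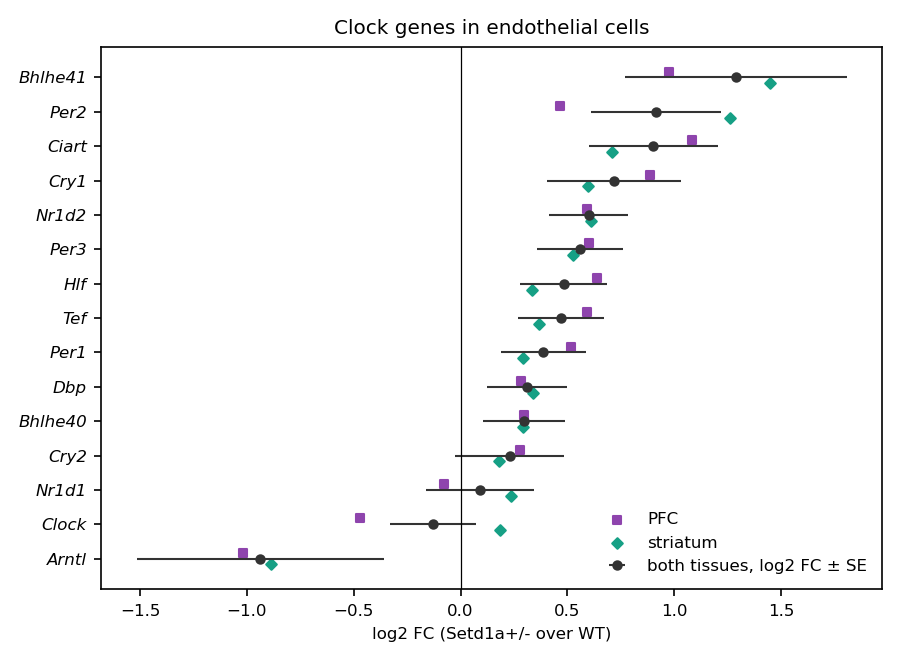
Log2 FC of Setd1a+/- over WT (horizontal) of the 15 clock genes tested in endothelial cells; black points with bars are the value over both tissues ± its standard error (4 libraries per genotype), purple squares the PFC, and green diamonds the striatum. The value over both tissues is above 0 for 13 genes and below 0 for Clock and Arntl.

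Few genes of the machinery to which Setd1a belongs had a small p. Of the H3K4 methyltransferases and COMPASS subunits, 18 were tested in endothelial cells and 1 was lower at an unadjusted p under 0.05 (1.4% of all endothelial genes were lower). This was Hcfc1, a host cell factor that joins SET1 complexes, at 51.6 and 43.7 CPM in PFC WT, 26.3 and 26.5 CPM in PFC Setd1a+/-, 43.5 and 43.4 CPM in striatum WT, and 36.9 and 27.3 CPM in striatum Setd1a+/- libraries, with a log2 FC of -0.58 (standard error 0.19). Kmt2c, another H3K4 methyltransferase, gave -0.78 in newly formed oligodendrocytes (2.23% of genes were lower there), and no member passed in the other 5 types. Among the demethylases, Kdm1b gave 1.28 in endothelial cells at 2.65 to 14.5 CPM.

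Genes within 5 Mb of Setd1a on chromosome 7 were counted at an unadjusted p under 0.05 in every type. In microglia 2 of 35 tested were lower (0.828% of all microglia genes were) and 0 higher. In endothelial cells 1 of 95 was lower (1.4% of all) and 0 higher, in interneurons 1 of 71 was lower (1.3%) and 0 higher, and in newly formed oligodendrocytes 1 of 29 was lower (2.23%) and 0 higher. In OPCs 1 of 78 was lower and 3 higher (1.59% and 1.56%), in oligodendrocytes 1 of 72 each (1.18% and 1.1%), and in astrocytes 1 of 49 each (1.3% and 3.26%).

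In endothelial cells 18 of 20 interferon response genes had a negative log2 FC, with a median of -0.21 against -0.02 over all genes, and 2 passed an unadjusted p under 0.05 (1.4% of all endothelial genes were lower at that p), Psmb9 (-0.44) and Ifi27 (-0.38). The median was -0.12 in the PFC and -0.34 in the striatum, with -0.16 and -0.73 for Psmb9 and -0.14 and -0.60 for Ifi27. The summed level of the list was 5823 and 5978 CPM in PFC WT and 6263 and 6023 CPM in PFC Setd1a+/- libraries, above WT, and 6314 and 6203 CPM in striatum WT and 4902 and 4797 CPM in striatum Setd1a+/- libraries, below WT. Of cholesterol synthesis genes, 2 of 18 in oligodendrocytes and 2 of 16 in OPCs were higher at an unadjusted p under 0.05 (1.1% and 1.56% of all genes of these types), and 0 were lower. In astrocytes 1 of 18 was lower and 0 higher (1.3% and 3.26% of all astrocyte genes), 12 had a negative log2 FC, and the median was -0.15 (0.17 in the PFC and -0.44 in the striatum). Of the genes that the study names for PFC endothelial cells, a list chosen on these samples, all 14 tested had a negative log2 FC, with a median of -0.43 in the PFC and -0.02 in the striatum, and 0 reached an unadjusted p under 0.05.

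The effect of the genotype was also compared between the tissues by an interaction term. edgeR called 0 of 49915 combinations (0%), 1103 (2.21%) had an unadjusted p under 0.05, and with the block 4 were called (0.00801%). The smallest unadjusted p values were those of Vtn in OPCs (0.000493) and Fxyd6 in newly formed oligodendrocytes (0.000913). Vtn, the vitronectin gene that marks mural cells, was at 52.5 and 88.7 CPM in PFC WT, 5.92 and 5.36 CPM in PFC Setd1a+/-, 3.8 and 13.1 CPM in striatum WT, and 23.1 and 0 CPM in striatum Setd1a+/- OPCs. Fxyd6, a regulator of the sodium pump, was at 333 to 484 CPM in the PFC, 443 and 603 CPM in striatum WT, and 164 and 138 CPM in striatum Setd1a+/- libraries. Medium spiny neuron markers in the same newly formed oligodendrocyte sums were at 710 and 1175 CPM in striatum WT and 126 and 482 CPM in striatum Setd1a+/-. Their part in the Fxyd6 difference was not tested.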

How the data were processed

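Single-cell libraries were aligned and counted by the authors with Cell Ranger 3.0.2 (mm10, per the submitters' processing notes), and cells were filtered (at least 800 genes, at most 10% mitochondrial UMIs) and annotated with Seurat 3.2.0. The deposited values are raw UMI counts per gene and barcode. Doublets received no further treatment. Counts of the annotated cells were summed per type and library and tested with edgeR 4.0.16 in R 4.3.3 (quasi-likelihood, TMM, filterByExpr minimum 10, tissue as covariate, Benjamini-Hochberg within the type, FDR under 0.05 and FC above 1.5). CPM values scale each sum to 1000000 UMIs. The scripts were tested on simulated data. The pairs come from the methods, and deviations of same-numbered libraries correlated at 0.43 in the PFC and 0.30 in the striatum over all 7 types summed, but within a type, where the block was fitted, at 0.10 to 0.38 in the PFC and 0.09 (astrocytes) to 0.33 in the striatum. Alternatives were the replicate block, DESeq2 1.42.0, library totals, no filter, no mitochondrial and ribosomal genes, and each library left out. Leaving out globin-rich cells was chosen after seeing the data. Named genes were Setd1a, the called genes or the 3 of smallest p per type, at most 10 genes shared by most types, the 2 of smallest interaction p, and at most 4 of smallest p per list, with exceptions stated where they occur. Members and lists were chosen with earlier results of these data known. Agreement between tissues was the correlation of log2 FCs across genes, with a jackknife over libraries. Promoters came from RefSeq and gene positions from GENCODE (GRCm38).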

Additional observations from a re-analysis of the deposited data

Results flagged for a closer look

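With the 4 pairs as a block, the genotype effect differed between the PFC and the striatum for 4 genes by the interaction term (edgeR FDR under 0.05), and for none of them without the block (FDR 1.00). The values are the log2 FC in the PFC minus that in the striatum. Npy, a neuropeptide of interneurons, gave -4.46 in astrocytes (FDR 0.00666), with 722 CPM in PFC WT replicate 2 and 10.3 to 32.5 CPM in the other 7 libraries. Hbb-bt, a globin gene, gave -7.25 in astrocytes (FDR 0.0170), with 743 CPM in striatum Setd1a+/- replicate 2. Wfdc17, a gene of myeloid cells, gave -3.82 in endothelial cells (FDR 0.0117, and 0.588 without cells of at least 20 globin UMIs), with 354 CPM in PFC WT replicate 2. Meg3, a long noncoding RNA abundant in neurons, gave 2.69 in newly formed oligodendrocytes (FDR 0.00437, and 0.0231 without those cells). It was at 143 to 240 CPM in the PFC, 1364 and 1630 CPM in striatum WT, and 115 and 574 CPM in striatum Setd1a+/- libraries. Medium spiny neuron markers were also lower in these striatal Setd1a+/- sums, and their part in the Meg3 difference was not tested. For Npy, Hbb-bt, and Wfdc17 the level was highest in 1 library by over 3 times.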

How the results depend on the processing

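Without the block edgeR called 0 genes in each type, and DESeq2 called 1. The pairing as a replicate block gave 5 calls in astrocytes, 3 in endothelial cells, 5 in newly formed oligodendrocytes, 2 in oligodendrocytes, 3 in interneurons, 4 for the interaction, 22 in the PFC, and 23 in the striatum. The block without cells of at least 20 globin UMIs gave 2 in endothelial cells, 1 in newly formed oligodendrocytes, 2 in oligodendrocytes, 3 in interneurons, 3 for the interaction, 19 in the PFC, and 17 in the striatum. It turned 1 called gene, Hbb-bs in astrocytes, from a log2 FC of 3.61 with the block to -0.257. Without a filter on low counts there were 15 in astrocytes, 16 in endothelial cells, 4 in microglia, 6 in OPCs, 11 in newly formed oligodendrocytes, 19 in oligodendrocytes, 18 in interneurons, 26 for the interaction, 59 in the PFC, and 55 in the striatum. The DESeq2 call was in oligodendrocytes. Leaving out 1 library at a time gave 0 to 7 in astrocytes (7 without striatum Setd1a+/- replicate 1), 0 to 1 in endothelial cells, 0 to 5 in newly formed oligodendrocytes, 0 to 2 in oligodendrocytes, 0 to 4 for the interaction, 0 to 8 in the PFC (8 without PFC Setd1a+/- replicate 2), and 2 to 20 in the striatum (20 without striatum Setd1a+/- replicate 1). The correlation between tissues in microglia was -0.0945 over genes with at least 100 UMIs in each tissue. In newly formed oligodendrocytes it was 0.0167 without globin-rich cells, 0.581 over genes with at least 100 UMIs, -0.00755 as a Spearman correlation, and -0.0120 to 0.115 with 1 library left out (the lowest without striatum WT replicate 1). The cause of the other changes was not tested. Of the values of single genes under an alternative, 1202 kept their side of the threshold, 41 passed it, 29 lost it, and 1 (Hbb-bs) changed sign. The 29 losses and the change of sign were counted from the calls with the block, since without it edgeR called 0 genes. The 2 libraries per group and tissue, and as few as 22 cells in a sum, limit what could be detected.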
